A study of Mus musculus with 24 samples.

Results

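Messenger RNA of the wild-type mouse hippocampus was compared with that of 3 other brain regions. The comparison used 12 of the 24 libraries of the series, chosen by their labels: 3 from hippocampus, 3 from cerebellum, 3 from cortex and 3 from olfactory bulb, all from dissected tissue of wild-type C57BL/6 mice. The remaining 12 libraries came from mice lacking the circular RNA Cdr1as and were not used. Each of the other regions carried equal weight, and a difference is the log2 level in hippocampus minus the mean log2 level of the other regions, so that 1 is a doubling and a positive value is a higher level in hippocampus. Age and sex are not given in the labels, nor whether the 3 libraries of a region came from separate animals. P-values therefore measure the spread between these libraries, which may be technical.

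The hippocampus is a fold of older cortex in which granule cells of the dentate gyrus send mossy fibres to CA3 pyramidal neurons, which in turn project to CA1. It is known for synaptic plasticity, for spatial and episodic memory, for adult-born granule cells and for its sensitivity to corticosteroids. Because whole tissue was sequenced, a gene can stand out through the cells that the region holds or through the RNA of each cell. In such bulk samples, fewer cells of a type and less RNA per cell cannot be told apart.

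Libraries held 21069332 to 36208610 gene counts, and levels are given as CPM, counts scaled by each library's total and TMM factor. The dissections matched their labels by the region markers examined: the cerebellar granule cell gene Cbln3 had 0.417 to 0.947 CPM in hippocampus and 1527 to 1806 CPM in cerebellum, and the olfactory bulb gene Doc2g had 1.37 to 1.93 CPM in hippocampus and 111 to 125 CPM in bulb. Several libraries stood apart within their region. Choroid plexus genes were abundant in hippocampus libraries 1 and 3, cerebellum libraries 1 and 2 and, less so, cortex libraries 1 and 2, and they are set aside below. Outside cortex, the libraries numbered 2 were low in long transcripts. Over 825 genes of more than 8 kb, the median log2 deviation from the region's mean was -0.333 in hippocampus 2, -0.242 in cerebellum 2 and -0.402 in bulb 2. In cortex 2 it was -0.035, beside -0.107 for genes under 2 kb. Grin2b, an NMDA receptor subunit, had 4.28 CPM in hippocampus 2 beside 141 and 63.6 CPM in hippocampus 1 and 3. Cerebellum 1 held more of the thalamic and midbrain gene Tcf7l2 (45.1 CPM) than cerebellum 2 and 3 (5.44 and 5.97 CPM). The striatal dopamine receptor gene Drd1 had 4.02, 5.01 and 5.82 CPM in hippocampus and 33.1, 65.4 and 64.2 CPM in cortex. Their part in the results was not tested beyond leaving libraries out.

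**Figure D1:**
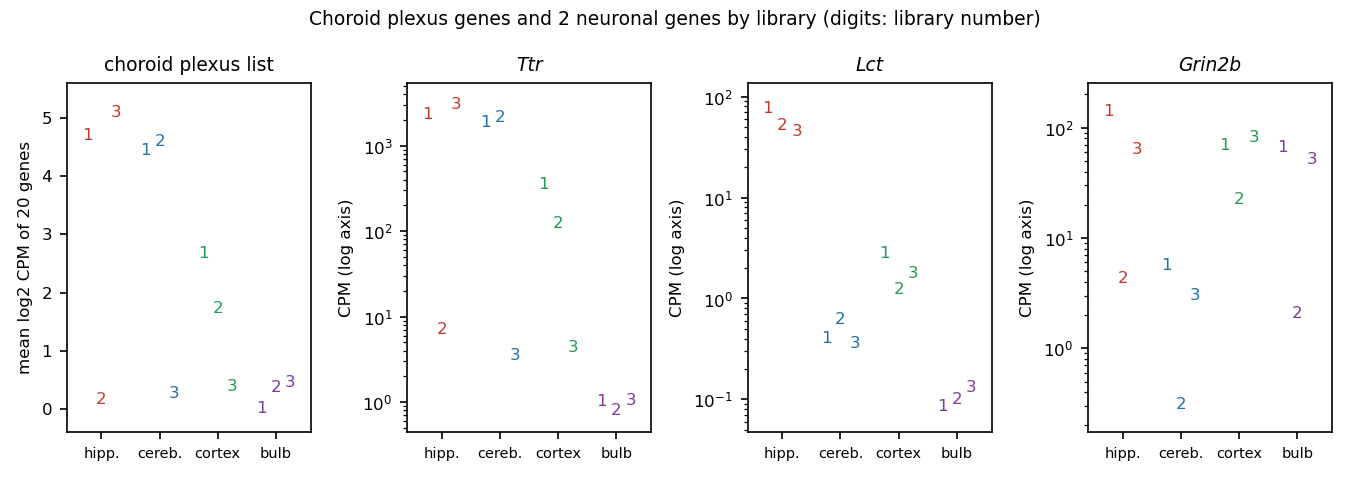
Level in each of the 12 wild-type libraries (digits give the library number within its region) of the 20 choroid plexus marker genes as a mean log2 CPM, and of Ttr, Lct and Grin2b in CPM on log axes, with hippocampus on the left of each panel. Choroid plexus content differs between libraries of one region, Lct separates hippocampus from every other library, and Grin2b is lowest in the library numbered 2 of each region.

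Of 16729 genes tested with edgeR's quasi-likelihood test, 2958 were higher in hippocampus than in the mean of the other regions and 2564 were lower, at an adjusted p under 0.05. These are 17.7% and 15.3% of the genes tested, 33.0% in all. Scaling by library totals in place of TMM factors gave 2538 higher and 3090 lower, and moved the median difference of all genes to -0.08, against -0.02. Without hippocampus 1 the lower count was 1678. The average hides where hippocampus ranks: it had the highest mean of the regions in 1851 of the 2958 higher genes (62.6%) and the lowest in 1628 of the 2564 lower genes (63.5%). Against cerebellum alone, 4133 genes (24.7%) were higher in hippocampus and 4063 (24.3%) lower, 49.0% in all. Against olfactory bulb the counts were 3503 (20.9%) and 3337 (19.9%), 40.9% in all, and against cortex 918 (5.49%) and 1339 (8.0%), 13.5% in all. Among the genes higher on average, 1256 were above both cerebellum and bulb with no call against cortex, and 105 were above both yet below cortex.

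A gene was therefore called hippocampus-defining only when it passed on average and against each region on its own with the same sign, and when its 3 hippocampus libraries did not overlap the other 9. This held for 465 higher genes (2.78% of those tested) and 319 lower genes (1.91%), 4.69% in all. Of these, 181 higher (1.08% of the genes tested) and 104 lower (0.622%), 1.70% in all, differed from every region by at least 1 on the log2 scale and are called strongly defining. Cortex was the nearest region for 292 of the 465 higher and 172 of the 319 lower genes. The median of the smallest single-region difference was 0.81 among the higher genes and 0.70 in size among the lower ones. Leaving out the libraries numbered 2 gave 456 higher and 308 lower defining genes, of which 355 and 247 were shared with the full set. Leaving out cerebellum 1 gave 452 and 309. None of the set-aside choroid plexus genes was defining.

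**Figure D2:**
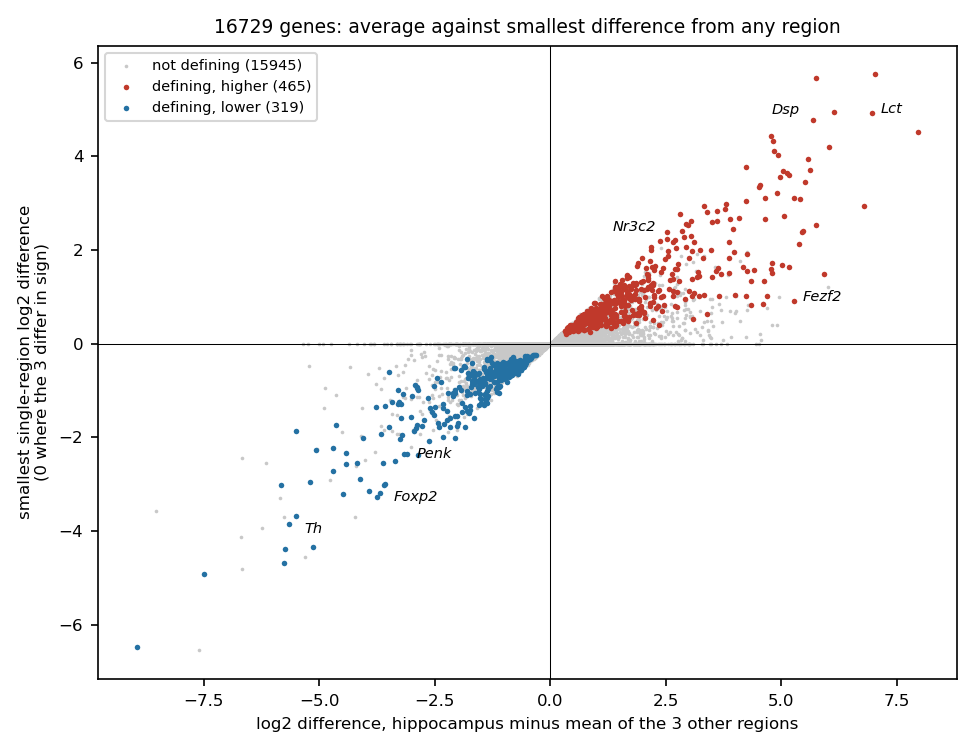
Each of the 16729 genes tested, with its log2 difference between hippocampus and the mean of the 3 other regions on the x axis and, on the y axis, the smallest of the 3 single-region differences, set to 0 where these differ in sign. Grey points far out on the x axis but near 0 on the y axis are genes for which at least 1 other region is close to hippocampus or lies beyond it. The 465 higher and 319 lower defining genes lie away from the horizontal line.

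The genes furthest above every region were led by Lct and Dsp. Lct encodes lactase, the disaccharidase of the intestinal brush border. It had 75.9, 52.3 and 45.3 CPM in hippocampus, against 0.399, 0.621 and 0.362 CPM in cerebellum, 2.81, 1.22 and 1.75 CPM in cortex and 0.0847, 0.0995 and 0.13 CPM in bulb. Every hippocampus library was thus above every other library, by a log2 difference of 6.97 ± 0.23 (SE) from the mean of the regions (edgeR adjusted p = 2.11e-09) and of 4.93 ± 0.30 from cortex, the nearest. Dsp encodes desmoplakin, the protein that ties desmosomes to intermediate filaments. It had 86.6, 52.7 and 58.4 CPM in hippocampus, against 1.82, 2.42 and 0.121 CPM in cerebellum, 1.12, 0.323 and 0.423 CPM in cortex and 2.79, 1.89 and 2.52 CPM in bulb (log2 difference 5.69 ± 0.45, edgeR adjusted p = 5.14e-06). Iyd encodes iodotyrosine deiodinase, which salvages iodide in the thyroid. Its levels were 6.46, 4.39 and 4.78 CPM in hippocampus and at most 0.302 CPM in each of the other 9 libraries. Its log2 difference was 4.78 ± 0.26 (edgeR adjusted p = 6.03e-08).

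Promoter sequences of these 3 genes are shown because they had an entry in the RefSeq promoter table and led the ranking among genes with one. Each is the 250 bases before the annotated start on assembly GRCm38.p6, 5′ to 3′ on the gene's strand, and capitals mark an E-box CAGATG or CAGCTG on either strand, the kind of site bound by NeuroD factors. Lct lies at chr1:128328319-128328568 on the minus strand, Dsp at chr13:38151044-38151293 on the plus strand and Iyd at chr10:3540024-3540273 on the plus strand. Since the deposited counts use mm9, promoters were looked up by gene and not by coordinate.
Lct: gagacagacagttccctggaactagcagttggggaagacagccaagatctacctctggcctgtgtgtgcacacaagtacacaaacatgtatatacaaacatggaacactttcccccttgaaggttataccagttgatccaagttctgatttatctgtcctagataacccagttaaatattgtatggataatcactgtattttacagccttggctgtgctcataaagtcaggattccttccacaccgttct
Dsp: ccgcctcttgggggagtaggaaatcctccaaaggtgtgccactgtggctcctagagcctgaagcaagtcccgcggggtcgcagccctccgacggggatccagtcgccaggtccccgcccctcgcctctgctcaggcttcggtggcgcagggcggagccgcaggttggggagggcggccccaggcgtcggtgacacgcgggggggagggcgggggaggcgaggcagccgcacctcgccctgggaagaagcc
Iyd: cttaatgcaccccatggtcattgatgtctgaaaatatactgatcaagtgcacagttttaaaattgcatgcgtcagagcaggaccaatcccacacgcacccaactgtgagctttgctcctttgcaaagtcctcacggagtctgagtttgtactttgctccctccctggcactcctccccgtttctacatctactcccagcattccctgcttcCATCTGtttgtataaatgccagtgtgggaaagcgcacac
The window of Iyd holds 1 such E-box, written CATCTG on its strand, and those of Lct and Dsp hold none. CAGATG, searched on both strands, was present in 24 of 120 strongly defining higher genes with a promoter entry, and in 1534 of the 12176 tested genes with one (12.6%). CAGCTG, which reads the same on both strands, was present in 25 of the 120 (20.8%) and in 1832 of the 12176. AGAACA, which resembles an arm of the corticosteroid receptor element, was present in 14.2% and 13.2%. Over all 342 defining higher genes with an entry the shares were 12.6% for CAGATG, 14.6% for CAGCTG and 13.5% for AGAACA. Among 64 strongly defining lower genes with an entry, each of the 3 motifs was present in 10 (15.6%). These are matches of letters, not sites shown to be bound.

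Other genes at the top of the ranking included Spink8, a serine protease inhibitor, with 20.4, 22.8 and 20.8 CPM in hippocampus, at most 1.06 CPM in cortex and at most 0.0995 CPM in cerebellum and bulb. Lefty1, an extracellular antagonist of Nodal signalling, had 11.7, 11.1 and 8.25 CPM in hippocampus and 0.357 to 0.782 CPM elsewhere. The proteases and matrix genes Klk8 (neuropsin, 10.4 to 14.2 CPM) and Olfml2b (an olfactomedin-like protein, 46.8 to 73.1 CPM) were above the other regions by 4.53 ± 0.17 and 4.23 ± 0.13 on the log2 scale. Genes of retroviral or retrotransposon origin were among the 15, the envelope gene Syna, with 5.5 to 10.1 CPM, and the Gag-like gene Rtl3, with 3.88 to 5.48 CPM. In the other libraries Syna reached at most 0.72 CPM and Rtl3 at most 0.365 CPM. Lhfpl1, a tetraspan membrane gene, was at 0 counts in all 3 cerebellum libraries, which puts hippocampus (1.35 to 1.85 CPM) at least 46.9-fold higher when the floor is set at 3 counts over those libraries. Pla2g2f, a secreted phospholipase, and Popdc3, a membrane protein of the Popeye family, had 3.07 to 4.12 and 6.59 to 7.17 CPM in hippocampus. Pirt was the first gene outside the 15. A further 5 unnamed or predicted genes that ranked among them were passed over. In the annotation the exons of Dsp, Syna, Klk8 and Popdc3 overlap a gene on the opposite strand, and the strand setting of the counting is not given in the sources used here, so a part of their counts could belong to that partner.

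**Figure D3:**
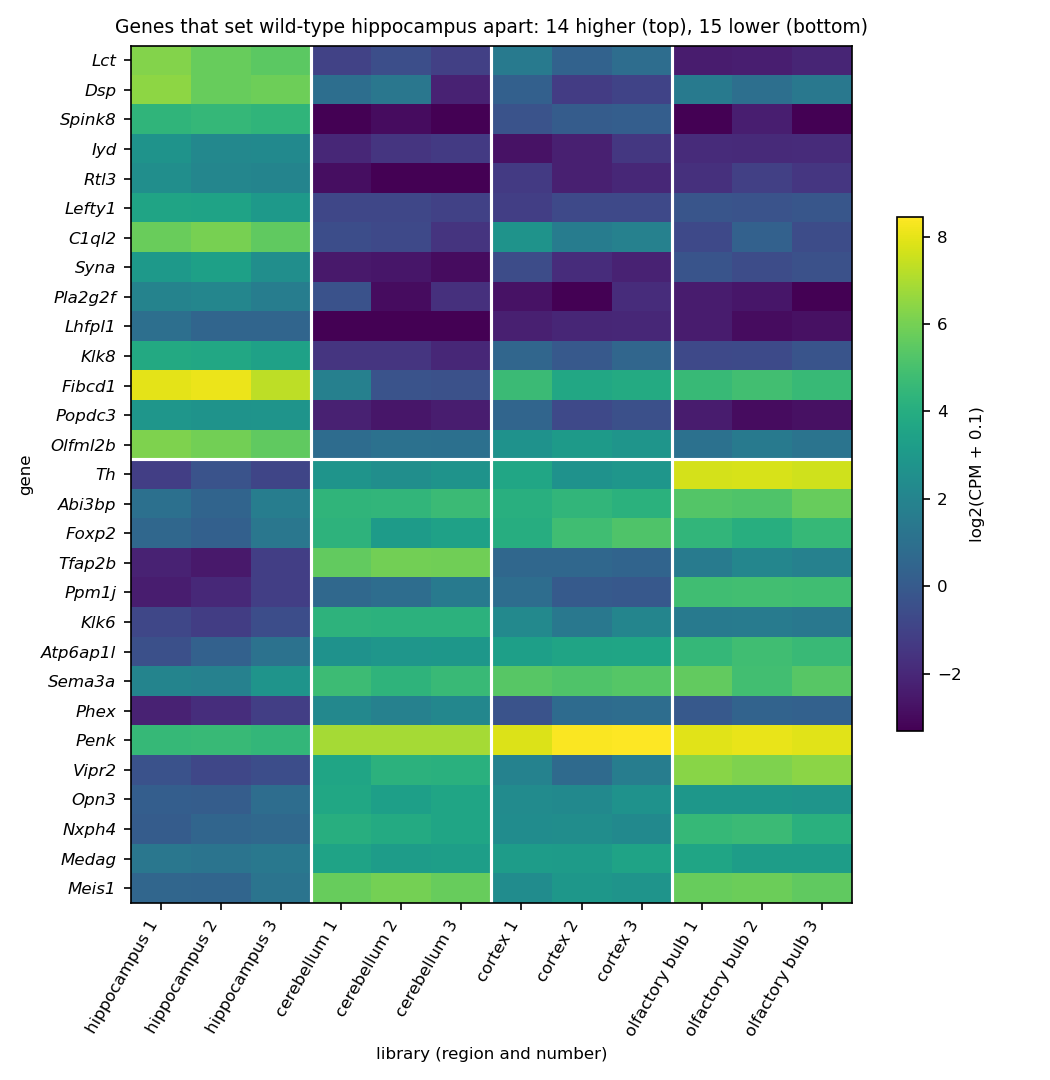
Level as log2(CPM + 0.1) of 14 of the 15 higher genes and of the 15 lower genes furthest from every other region (rows, in rank order) in the 12 wild-type libraries (columns, hippocampus first). In the upper block the 3 hippocampus columns are brighter than the 9 others in each row, and in the lower block they are darker.

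Markers of the hippocampal cell types included genes above every other region and genes shared with cortex or cerebellum. For this and the later lists, 17.7% of all genes tested were higher on average and 15.3% lower. Against single regions, the shares higher and lower were 24.7% and 24.3% for cerebellum, 5.49% and 8.0% for cortex and 20.9% and 19.9% for bulb. The shares of defining genes were 2.78% and 1.91%. The lists were chosen with earlier results of these data known, so their counts are a description and not a test. Of 14 dentate granule cell markers, 13 were higher on average and 1 did not pass, with a median log2 difference of 2.07 against -0.02 for all genes. Prox1, the transcription factor that specifies granule cells, had 155, 102 and 120 CPM in hippocampus, against 62.3, 50.1 and 61.6 CPM in cerebellum, 22.6, 16.4 and 22.5 CPM in cortex and 5.16, 4.61 and 6.34 CPM in bulb (2.75 ± 0.13, edgeR adjusted p = 2.85e-08). The groups did not overlap, and cerebellum came closest. C1ql2, a secreted protein that granule cells release at mossy fibre synapses, had 54.7, 66.0 and 47.5 CPM in hippocampus, 2.95 to 6.53 CPM in cortex and at most 1.16 CPM in cerebellum and bulb (5.61 ± 0.25, adjusted p = 2.88e-08). The zinc-finger factor Glis3 (2.24 ± 0.15) and the calcium-permeable channel gene Trpc6 (1.89 ± 0.15) were defining too. Tdo2, which encodes tryptophan dioxygenase, was at 8.01 to 9.44 CPM in hippocampus and at 5.91 to 8.82 CPM in cerebellum, so its average difference of 3.91 ± 0.19 came from cortex and bulb. Calb1 (calbindin), also a Purkinje cell gene, was 2.62 lower in hippocampus than in cerebellum on the log2 scale, and its average difference of 0.37 ± 0.09 no longer passed without hippocampus 2 (0.32, edgeR adjusted p = 0.0551).

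All 6 tested CA1 markers were higher on average (median 2.69), but only 3 of them passed against cortex. Fibcd1, a receptor for acetylated sugars, had 250, 273 and 157 CPM in hippocampus, against 3.38, 0.715 and 0.663 CPM in cerebellum, 26.2, 13.1 and 14.6 CPM in cortex and 24.0, 29.1 and 24.5 CPM in bulb (4.65 ± 0.34, edgeR adjusted p = 2.89e-06). Man1a, a mannosidase of the Golgi, was more evenly spread, with 96.7 to 103 CPM in hippocampus and 21.1 to 58.6 CPM elsewhere, and was defining at a log2 difference of 1.27 ± 0.08. Wfs1, the wolframin gene often used to mark CA1, had 170, 160 and 175 CPM in hippocampus and 222, 164 and 142 CPM in cortex, which overlapped. Mpped1 and Ccn3 gave the same picture, with differences from cortex of 0.12 (edgeR adjusted p = 0.834) and 0.20 (adjusted p = 0.621).

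Among 7 CA2 markers, 5 were higher and 2 were lower on average. Rgs14, a regulator of G-protein signalling that restrains plasticity in CA2, had 111, 107 and 83.9 CPM in hippocampus, 54.0 to 57.0 CPM in cortex, 3.26 to 5.74 CPM in bulb and at most 0.373 CPM in cerebellum (4.61 ± 0.15, edgeR adjusted p = 1.26e-09). Avpr1b, the vasopressin receptor of CA2, was low and almost undetected elsewhere: 0.953, 1.08 and 0.722 CPM there, 0 counts in every cerebellum and bulb library and 0.051, 0 and 0 CPM in cortex. That is at least 28.4-fold above cerebellum and at least 23.5-fold above bulb at the floor of 3 counts per group. Pcp4 and Cacng5, also used as CA2 markers, were defining in the opposite direction. Pcp4, a calmodulin-binding peptide, had 8.96, 9.75 and 11.1 CPM in hippocampus and 26.0 to 62.0 CPM in the other libraries (-2.01 ± 0.17, adjusted p = 2.40e-06).

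Of 7 CA3 markers, 6 were higher and 1, Coch, was lower, a call lost without the libraries numbered 2. The clearest was Grik4, a kainate receptor subunit of CA3 neurons, with 80.6, 83.1 and 68.3 CPM in hippocampus, against 19.3, 20.1 and 18.4 CPM in cerebellum, 23.8, 29.9 and 26.3 CPM in cortex and 5.29, 5.94 and 6.48 CPM in bulb (2.40 ± 0.08, edgeR adjusted p = 2.07e-09). Bok, a member of the Bcl-2 family, was defining at 1.58 ± 0.09, as was Iyd. Cpne4, a copine, had 121 to 143 CPM in hippocampus and 296 to 369 CPM in bulb, and was lower than bulb by 1.34 (adjusted p = 0.00179) although higher on average. For the mossy cells of the dentate hilus, of 5 markers, 1 was higher and 1 lower on average. Csf2rb2, a cytokine receptor subunit, had 2.89 to 4.20 CPM in hippocampus and 0.28 to 2.32 CPM elsewhere (log2 difference 2.0 ± 0.30, adjusted p = 0.000274), and it stopped being defining without hippocampus 2 or 3, without cortex 1 or 3 or without bulb 3 (highest single-region adjusted p = 0.129). Calb2 (calretinin) was lower, at 27.0 to 46.8 CPM in hippocampus and 404 to 564 CPM in cerebellum and bulb.

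**Figure D4:**
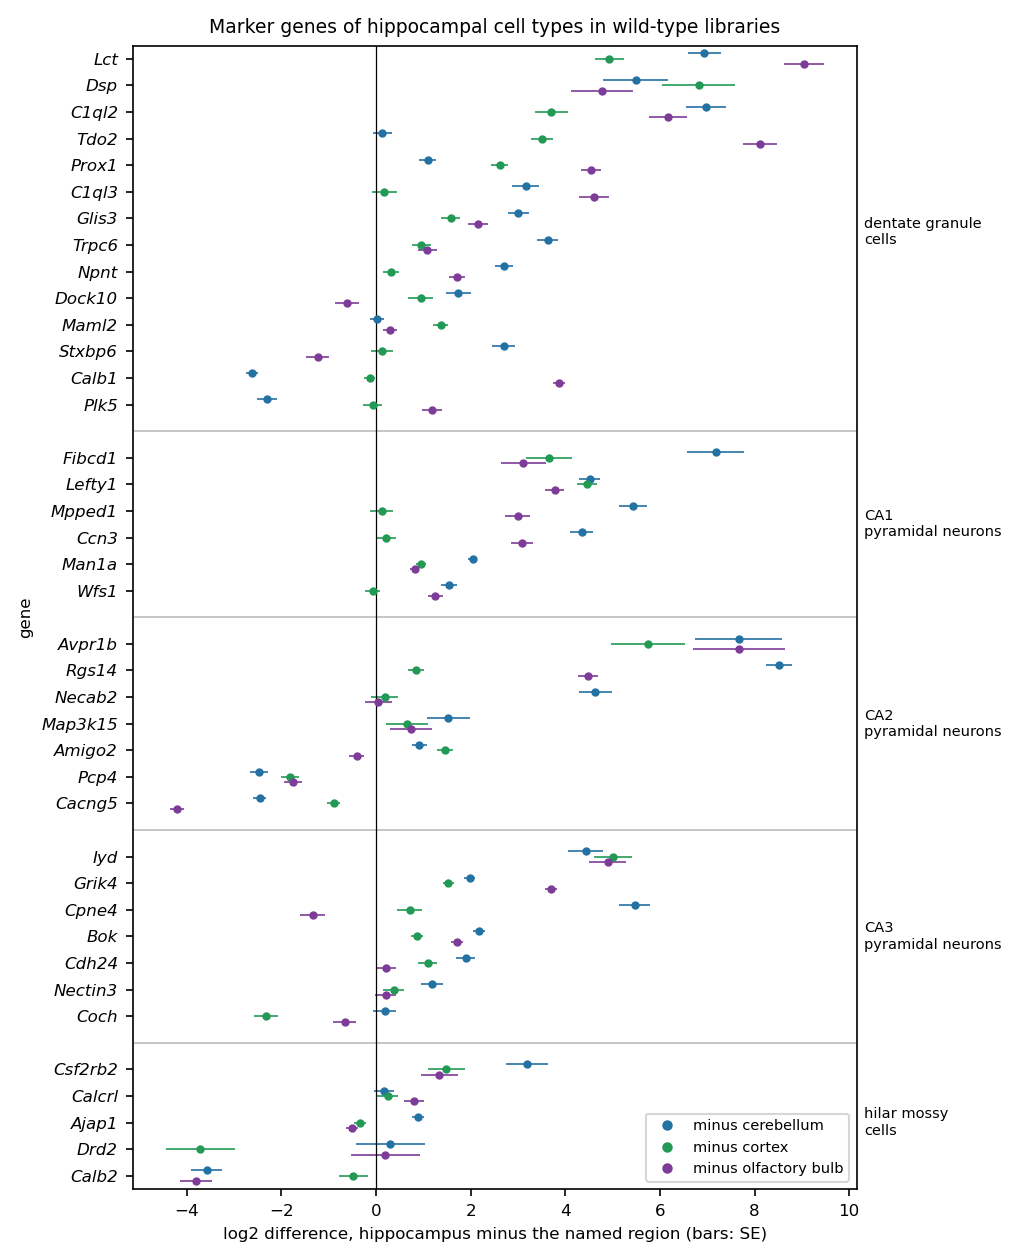
Log2 differences (x axis, with SE bars) between hippocampus and cerebellum, cortex or olfactory bulb for the tested markers of dentate granule cells, CA1, CA2 and CA3 pyramidal neurons and hilar mossy cells. Points of one gene that all lie right of 0, as for Lct, Fibcd1, Rgs14, Iyd and Grik4, are above each region, and a green point near 0 marks a gene that cortex shares. The values of Avpr1b are fitted against groups at 0 counts and are no bound.

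Genes of cell birth and of Cajal-Retzius neurons, early-born cells that secrete reelin, differed in both directions. Of 11 genes of the neurogenic lineage, 3 were higher and 4 lower on average (5 and 3 without cerebellum 1). Doublecortin (Dcx), the marker of migrating neuroblasts, had 24.9, 21.7 and 39.4 CPM in hippocampus and 412, 268 and 467 CPM in bulb, the end of the rostral migratory stream. Eomes (Tbr2) had 1.22, 1.04 and 0.541 CPM in hippocampus and 137 to 164 CPM in bulb, where mitral and tufted cells express it, and was a defining lower gene (-4.64 ± 0.34, edgeR adjusted p = 1.39e-06). Of 6 Cajal-Retzius markers, 1 was higher and 3 were lower on average. Reln, which encodes reelin, had 90, 64.3 and 92.7 CPM in hippocampus, against 374, 363 and 398 CPM in cerebellum, 132, 109 and 111 CPM in cortex and 424, 262 and 354 CPM in bulb (-1.60 ± 0.16, edgeR adjusted p = 1.13e-05). Trp73, a p53 relative, was the higher one, with 5.97 to 7.14 CPM in hippocampus and 1.26 to 1.53 CPM in cortex, and it overlapped cerebellum.

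Patterning transcription factors were more often higher than lower. Of 31 tested patterning factors, 18 were higher and 6 lower on average, beside 17.7% and 15.3% of all genes. Neurod6, a bHLH factor of pyramidal neurons, was defining, with 236, 228 and 198 CPM in hippocampus, against 4.79, 6.49 and 4.82 CPM in cerebellum, 69.1, 62.5 and 67.8 CPM in cortex and 1.65, 1.19 and 1.22 CPM in bulb (4.80 ± 0.10, adjusted p = 6.93e-11). Fezf2, best known for specifying deep-layer cortical neurons, was higher in hippocampus than in cortex itself, at 42.1, 53.8 and 44.0 CPM against 24.0, 26.6 and 23.6 CPM (0.91 from cortex, adjusted p = 0.000166).

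Tbr1, a factor of cortical projection neurons, was lower than in cortex by 1.26 on the log2 scale (edgeR adjusted p = 1.85e-05), and above cerebellum and bulb. Neurod2, a relative of Neurod6, had 147, 128 and 115 CPM in hippocampus and 81.3, 109 and 102 CPM in cerebellum, and its call against every region was lost without hippocampus 1 (highest single-region adjusted p = 0.063) or cerebellum 1 (0.0709). Zbtb20, a zinc-finger repressor needed for CA1 identity, had 465, 143 and 318 CPM in hippocampus and 56.4 to 180 CPM elsewhere. Hippocampus 2 overlapped the other regions, and the average difference of 1.49 ± 0.39 (edgeR adjusted p = 0.0136) became 1.07 (adjusted p = 0.111) without hippocampus 1. On the lower side, the TALE homeobox gene Meis1 and the cerebellar factor Zic1 were defining. Meis1 had 1.37, 1.31 and 2.21 CPM in hippocampus, 5.15 to 7.44 CPM in cortex and 47.3 to 62.8 CPM in cerebellum and bulb (-4.06 ± 0.20, adjusted p = 2.68e-08).

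Genes of the AMPA receptor differed in both directions. Of 15 subunits and auxiliary proteins, 8 were higher and 5 lower on average, beside 17.7% and 15.3% of all genes. Defining were 3 higher and 4 lower ones, beside 2.78% and 1.91% of all genes. Gria1, the subunit most tied to activity-dependent insertion at hippocampal synapses, had 1341, 1388 and 1094 CPM in hippocampus, against 636, 562 and 559 CPM in cerebellum, 489, 518 and 438 CPM in cortex and 811, 684 and 694 CPM in bulb (1.09 ± 0.09, edgeR adjusted p = 2.01e-06). Cnih2, a cornichon that slows AMPA receptor closing, had 373, 372 and 304 CPM in hippocampus, 137 to 172 CPM in cortex and 28.2 to 75.7 CPM in cerebellum and bulb (2.33 ± 0.08, adjusted p = 2.07e-09). Cacng8, the TARP auxiliary subunit γ-8, had 70.1, 66.1 and 51.4 CPM in hippocampus and at most 29.7 CPM elsewhere (2.02 ± 0.11, adjusted p = 4.50e-08). Each of these genes was above every other library in all 3 hippocampus libraries.

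Several other TARPs and Gria4 were lower. Gria4, a subunit of interneurons and of cerebellum, had 72.1, 79.0 and 98.3 CPM in hippocampus, 119 to 138 CPM in cortex, 228 to 249 CPM in bulb and 588 to 669 CPM in cerebellum (-1.72 ± 0.11, edgeR adjusted p = 1.84e-07). Cacng4, Cacng5 and Cacng7 were defining lower genes at -1.11 ± 0.09, -2.52 ± 0.13 and -0.91 ± 0.07, and Cacng5 had 13.0 to 14.6 CPM in hippocampus and 239 to 266 CPM in bulb. Shisa6, another AMPA receptor partner, had 208 to 297 CPM in hippocampus and 208 to 240 CPM in cerebellum, which overlapped, and at most 69.6 CPM in cortex and bulb.

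Among 7 kainate receptor genes, 3 were higher and 3 lower on average. Besides Grik4, the auxiliary subunit Neto1 was higher, with 130, 79.6 and 116 CPM in hippocampus and 1.15 to 3.56 CPM in cerebellum, but its difference from cortex was 0.37 (edgeR adjusted p = 0.486). Grik3 and its partner Neto2 were lower on average (-1.11 ± 0.17 and -0.73 ± 0.13). Both stopped being defining in several runs that left out 1 library, Grik3 without hippocampus 1 or 2 or cerebellum 2 or 3 (highest single-region adjusted p = 0.103) and Neto2 without any single hippocampus library or without cortex 2 or 3 (highest 0.131). The mossy fibre synapse list held 15 genes, of which 11 were higher and 1 lower on average. Against cortex alone, 3 were higher and 3 lower, beside 5.49% and 8.0% of all genes. Slc30a3, which loads zinc into mossy fibre vesicles, had 72.9, 79.8 and 66.2 CPM in hippocampus and 115 to 140 CPM in cortex, so it was lower than cortex (-0.79, adjusted p = 0.000614) although 2.27 ± 0.09 above the mean. Pdyn, the dynorphin precursor of granule cells, was likewise lower than cortex (-2.03, adjusted p = 0.00325). Cortex libraries also held more of the striatal gene Drd1, as given above. The part of striatal tissue in the Pdyn difference was not tested. Bdnf did not differ detectably from cortex (0.01, adjusted p = 0.984).

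None of the 7 NMDA receptor genes was higher on average and 3 were lower. Grin1, the obligatory subunit, had 574, 615 and 488 CPM in hippocampus and 409 to 600 CPM elsewhere (0.18 ± 0.10, edgeR adjusted p = 0.209). Grin2a had 49.9, 4.16 and 30.3 CPM in hippocampus, against 8.53, 0.87 and 8.71 CPM in cerebellum, 25.9, 4.74 and 29.9 CPM in cortex and 10.8, 0.332 and 7.87 CPM in bulb. The second value of each set is the library numbered 2. With those libraries Grin2a and Grin2b did not pass (1.62 ± 0.89, adjusted p = 0.2 and 1.88 ± 0.97, adjusted p = 0.172). Those libraries, low in long transcripts outside cortex as given above, were left out in a further run after such low values had been seen. The differences were then 1.62 (adjusted p = 0.000338) and 1.94 (adjusted p = 0.00516), which is no independent test of these genes. Of 7 metabotropic receptors, 4 were higher and 2 lower. Grm4, a presynaptic receptor of cerebellar granule cells, was defining at 15.9, 16.3 and 17.8 CPM in hippocampus, 39.8 to 41.2 CPM in cortex, 134 to 145 CPM in bulb and 729 to 775 CPM in cerebellum (-3.30 ± 0.08, adjusted p = 3.12e-10).

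Of 11 inhibitory neuron genes, 6 were higher and 4 lower on average, with a median log2 difference of 0.77. The median was 3.07 against cerebellum, -0.60 against cortex and -0.41 against bulb. Against cortex alone, 1 gene was higher and 6 were lower, beside 5.49% and 8.0% of all genes. The enzyme Gad1 and the transporter Slc32a1, which most inhibitory neurons use, were among those lower on average. Gad1, which encodes the main GABA-synthesising enzyme, had 394, 406 and 398 CPM in hippocampus, against 686, 625 and 658 CPM in cerebellum, 567, 502 and 558 CPM in cortex and 2099, 2290 and 2096 CPM in bulb (-1.21 ± 0.08, edgeR adjusted p = 2.00e-07). Slc32a1, the vesicular GABA transporter, had 58.3 to 64.0 CPM in hippocampus and 111 to 246 CPM in the other libraries (-1.31 ± 0.09, adjusted p = 6.89e-07). Both were defining. Among markers of interneuron classes, somatostatin (Sst) overlapped cortex, with 151, 158 and 143 CPM in hippocampus and 166, 142 and 173 CPM in cortex. Lhx6 lay below cortex in every hippocampus library, at 17.7 to 18.4 CPM against 21.1 to 25.7 CPM.

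Of 16 GABA receptor genes, 6 were higher and 4 lower on average. Against cortex alone 1 was higher and 6 were lower, beside 5.49% and 8.0% of all genes. Gabrd, the δ subunit of extrasynaptic receptors, was a defining lower gene, with 21.7, 23.5 and 23.6 CPM in hippocampus, against 246, 264 and 260 CPM in cerebellum, 73.5, 79.2 and 81.8 CPM in cortex and 44.5, 51.3 and 45.1 CPM in bulb (-2.11 ± 0.08, edgeR adjusted p = 4.11e-09). Gabra5, the α5 subunit of extrasynaptic receptors in pyramidal cells, had 216, 238 and 181 CPM in hippocampus, 63.0 to 68.5 CPM in cortex, 143 to 171 CPM in bulb and 0.844 to 4.68 CPM in cerebellum. Its libraries did not overlap those of any region, but the difference from bulb of 0.44 missed the threshold (adjusted p = 0.390).

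Kinases and scaffolds of synaptic plasticity were higher on average in 18 of 27 genes and lower in 4, with a median log2 difference of 0.70, and 0.19 against cortex alone. Camk2a, the calcium/calmodulin kinase of long-term potentiation, had 4934, 4592 and 3469 CPM in hippocampus, against 139, 107 and 87.6 CPM in cerebellum, 3850, 3127 and 2897 CPM in cortex and 864, 852 and 814 CPM in bulb. The cortex and hippocampus libraries overlapped (0.39, edgeR adjusted p = 0.205). Camk2d, another subunit of the kinase, was a defining lower gene at 43.6, 42.3 and 76.9 CPM in hippocampus and 137 to 280 CPM elsewhere (-1.80 ± 0.18, adjusted p = 1.22e-05). Ptk2b, the calcium-sensitive kinase Pyk2, had 1197, 1252 and 827 CPM in hippocampus and 6.54 to 613 CPM elsewhere. It stopped being defining without hippocampus 1 or 2 or without cortex 1 or 3 (highest single-region adjusted p = 0.111).

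Receptors for corticosteroids and stress peptides differed in both directions. Nr3c2, the mineralocorticoid receptor, had 233, 190 and 185 CPM in hippocampus, against 23.5, 22.1 and 26.1 CPM in cerebellum, 46.5, 39.6 and 43.2 CPM in cortex and 44.4, 34.1 and 44.8 CPM in bulb (2.53 ± 0.09, edgeR adjusted p = 3.86e-09). The smallest difference, from cortex, was 2.23. Crhr1, the receptor for corticotropin-releasing hormone, was defining in the other direction, with 13.9, 11.3 and 11.9 CPM in hippocampus, against 89.8, 95.3 and 89.9 CPM in cerebellum, 34.1, 30.2 and 25.8 CPM in cortex and 77.8, 82.1 and 85.8 CPM in bulb (-2.31 ± 0.11, adjusted p = 2.38e-08). Hsd11b1, which regenerates active corticosterone, was above cortex (0.95, adjusted p = 0.000912) and bulb (2.98, adjusted p = 5.32e-08) but below cerebellum (-0.80, adjusted p = 0.000591). Fkbp5, a steroid-induced chaperone, had 89.9 to 116 CPM in hippocampus and at most 79.8 CPM elsewhere, with a difference from cortex of 0.54 that missed the threshold (adjusted p = 0.0794). Of the 9 genes, 4 were higher and 1 lower on average.

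Of 27 monoamine and acetylcholine receptor genes, 16 were higher on average and 3 lower, beside 17.7% and 15.3% of all genes. Against cerebellum 20 were higher (median log2 difference 2.63). Against cortex alone 5 were higher and 9 lower (median -0.13), beside 5.49% and 8.0% of all genes. Drd1 of this list is also a striatum marker and had higher levels in cortex, as given above. The part of striatal tissue in the cortex count was not tested. The dopamine receptor gene Drd5 had 27.1, 23.8 and 16.6 CPM in hippocampus, against 1.05, 0.808 and 0.573 CPM in cerebellum, 2.71, 3.05 and 3.33 CPM in cortex and 1.65, 1.89 and 1.48 CPM in bulb (3.79 ± 0.16, edgeR adjusted p = 1.03e-08). The noradrenaline receptor gene Adra1d was defining as well, with 43.8 to 54.5 CPM in hippocampus and at most 25.2 CPM elsewhere (2.09 ± 0.09, adjusted p = 1.20e-08). Htr4, a serotonin receptor that raises cyclic AMP, had 15.4, 14.4 and 14.0 CPM in hippocampus, 4.35 to 4.84 CPM in cortex and at most 0.545 CPM in cerebellum and bulb, and was defining in every run that left out 1 library except that without cortex 3 (highest single-region adjusted p = 0.0517). Chrm1, the muscarinic receptor of pyramidal neurons, had 241 to 313 CPM in hippocampus and 189 to 245 CPM in cortex, which overlapped.

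Among 22 neuropeptide genes and their receptors, 12 were higher and 1 lower on average, beside 17.7% and 15.3% of all genes. Cerebellum set most of this, with 18 genes higher in hippocampus and a median log2 difference of 3.11. Against cortex alone, 1 was higher and 10 were lower (median -1.11), beside 5.49% and 8.0% of all genes. Penk and Tac1 of this list are also striatum markers, all 9 of which were lower than cortex. The part of striatal tissue in the cortex count was not tested. Npy2r, the presynaptic receptor for neuropeptide Y, had 68.0, 71.1 and 60.4 CPM in hippocampus, against 0.654, 0.342 and 0.422 CPM in cerebellum, 15.8, 9.70 and 12.2 CPM in cortex and 0.0847, 0.663 and 0.869 CPM in bulb (5.47 ± 0.25, edgeR adjusted p = 3.80e-08). Sstr4, a somatostatin receptor, had 30.3 to 53.8 CPM in hippocampus and at most 23.9 CPM elsewhere, but the difference from cortex of 0.93 missed the threshold (adjusted p = 0.058). The 1 lower gene was Penk, described with the lower genes.

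**Figure D5:**
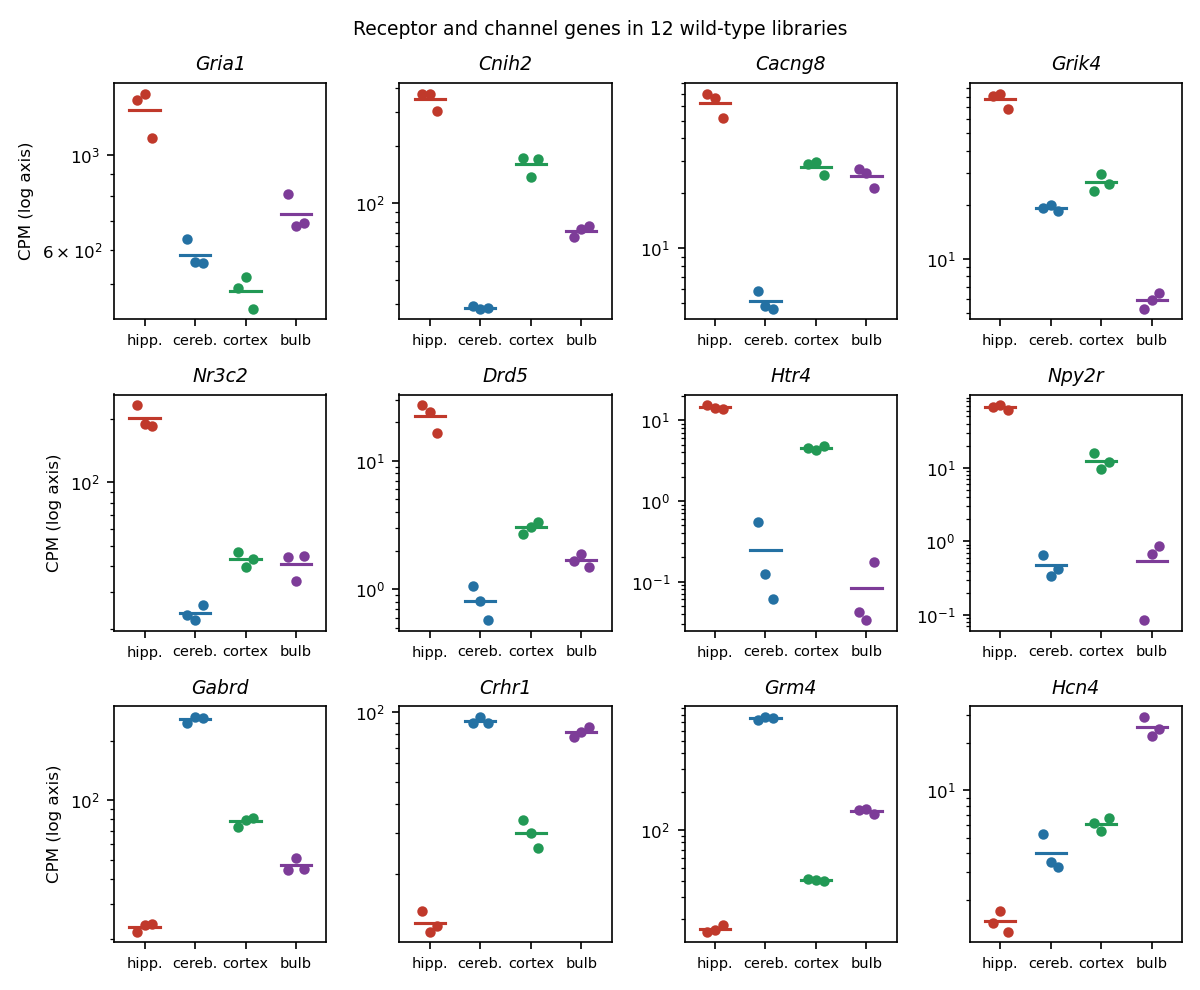
CPM on log axes of 12 receptor and channel genes in the 12 wild-type libraries, with hippocampus on the left of each panel (dots are libraries, horizontal lines are means of 3). In the upper 2 rows the 3 hippocampus dots lie above the other 9, and in the bottom row, with Gabrd, Crhr1, Grm4 and Hcn4, they lie below.

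Of 25 potassium and HCN channel genes, 7 were higher and 9 lower on average, and the lower count was 6 without hippocampus 1 or 2 and 5 without hippocampus 3. Hcn4, a pacemaker channel, was a defining lower gene with 1.43, 1.70 and 1.26 CPM in hippocampus, 3.26 to 6.68 CPM in cerebellum and cortex and 22.3 to 29.4 CPM in bulb (-2.55 ± 0.19, edgeR adjusted p = 7.93e-07). Kcnip1, a partner of A-type channels, was defining too (-1.33 ± 0.10), whereas Kcnip2 was higher on average without passing against cortex (0.55, adjusted p = 0.314) or bulb (0.38, adjusted p = 0.373). Of 21 tested Wnt genes, 5 were higher and 6 lower. Dkk3, a Dickkopf family member, had 510, 506 and 422 CPM in hippocampus and 304 to 358 CPM in cortex. Its difference from cortex (0.53, edgeR adjusted p = 0.0374) was lost without hippocampus 1 or 2, any cortex library or bulb 1 (highest single-region adjusted p = 0.152).

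Immediate-early genes were higher on average in 5 of 15 and lower in none, and the higher count was 3 without hippocampus 2, cerebellum 3, cortex 2 or bulb 2 (up to 2 lower in such runs). Nr4a3, an orphan nuclear receptor induced by activity, had 126, 109 and 105 CPM in hippocampus, against 19.3, 12.7 and 25.8 CPM in cerebellum, 43.7, 31.0 and 35.8 CPM in cortex and 21.6, 16.1 and 42.4 CPM in bulb (2.07 ± 0.24, edgeR adjusted p = 6.46e-05). It was defining. Egr3, a zinc-finger factor, was higher on average (2.04 ± 0.28) but every cortex library was above hippocampus, with 47.5 to 56.7 CPM in hippocampus and 82.1 to 131 CPM in cortex (-0.99, adjusted p = 0.0939).

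The genes furthest below every region were led by Th, tyrosine hydroxylase, the rate-limiting enzyme of catecholamine synthesis. It had 0.357, 0.694 and 0.451 CPM in hippocampus, against 6.79, 5.5 and 6.6 CPM in cerebellum, 12.5, 6.22 and 7.16 CPM in cortex and 206, 214 and 192 CPM in bulb, whose dopaminergic neurons express it (-5.5 ± 0.29, edgeR adjusted p = 7.85e-08). Penk, the enkephalin precursor, had 23.5, 24.1 and 22.2 CPM in hippocampus, against 118, 117 and 117 CPM in cerebellum, 228, 335 and 349 CPM in cortex and 239, 264 and 239 CPM in bulb (-3.16 ± 0.13, adjusted p = 8.74e-09). Cortex libraries also held striatal genes, as given above, and striatal neurons express Penk. The smallest difference of Penk was that from cerebellum, at -2.35. Its exons overlap a gene on the opposite strand.

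Transcription factors among these 15 were Foxp2, Tfap2b and Meis1. Foxp2, a forkhead factor of deep cortical layers, striatum and Purkinje cells, had 1.43, 1.12 and 2.44 CPM in hippocampus, against 19.7, 8.70 and 10.6 CPM in cerebellum, 16.2, 28.5 and 36.9 CPM in cortex and 21.4, 16.8 and 23.3 CPM in bulb (-3.57 ± 0.39, edgeR adjusted p = 3.29e-05). Tfap2b, the AP-2β factor of cerebellar interneurons, had 0.0771 to 0.361 CPM in hippocampus and 49.2 to 61.6 CPM in cerebellum, and cortex was nearest at 1.27 to 1.44 CPM. Sema3a, the repulsive axon guidance cue, had 3.84, 3.51 and 6.68 CPM in hippocampus and 20 to 49.4 CPM in the other 9 libraries (-2.86 ± 0.23, adjusted p = 2.65e-06). Abi3bp, a matrix-binding protein, had 1.27 to 3.11 CPM in hippocampus and 16.9 to 52.0 CPM elsewhere (-3.68 ± 0.25, adjusted p = 5.43e-07).

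Klk6, a serine protease of myelinating cells, had 0.347 to 0.586 CPM in hippocampus and 18.6 to 19.6 CPM in cerebellum (-3.63 ± 0.23), so the kallikreins Klk8 and Klk6 defined the hippocampus in opposite directions. Vipr2, a receptor for VIP and PACAP, had 0.462 to 0.685 CPM in hippocampus and 72.1 to 85.4 CPM in bulb (-4.71 ± 0.29, edgeR adjusted p = 3.12e-07). The rest of the 15 were the phosphatase gene Ppm1j, the proton-pump accessory relative Atp6ap1l, the endopeptidase gene Phex, the opsin gene Opn3, the neurexin ligand Nxph4 and Medag, with differences from the mean between -2.07 (Medag) and -4.41 (Ppm1j). Gpr153 was the first outside. Opn3, Medag and Meis1 share exon sequence with another gene on the same strand, so the counting could split their reads.

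Markers of the other regions were lower in part: of 11 cerebellum markers 9 were lower and none higher, of 12 bulb markers 9 were lower and none higher, but of 14 cortex markers 6 were higher and 5 lower. Set against cortex alone, where 5.49% of genes were higher and 8.0% lower, 10 of the 14 cortex markers were lower and 1 was higher. The defining lower genes among them included Cux1, a factor of upper layers, with 39.0, 29.8 and 35.9 CPM in hippocampus and 66.2 to 132 CPM elsewhere (-1.49 ± 0.13, edgeR adjusted p = 3.15e-06), and Syt6, a synaptotagmin of deep layers (-2.88 ± 0.12). Mef2c had 142, 120 and 187 CPM in hippocampus and 711, 727 and 731 CPM in cortex (-2.27, adjusted p = 1.72e-05). The 9 striatum markers were all lower than cortex, with a median of -3.47.

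Glial markers differed mostly by region of comparison. Of 10 oligodendrocyte markers, 7 were higher on average, all 10 were above bulb and none passed against cortex. Mobp, a myelin protein, had 1062, 879 and 918 CPM in hippocampus, against 870, 966 and 750 CPM in cerebellum, 724, 878 and 999 CPM in cortex and 334, 424 and 378 CPM in bulb. Of 10 microglial genes, all 10 were above cerebellum, none passed against cortex or bulb, and 6 were higher on average (10 without bulb 2). Of all genes tested, 24.7% were above cerebellum and 20.9% above bulb. P2ry12, a purinergic receptor of resting microglia, had 34.1 to 37.0 CPM in hippocampus and 7.67 to 11.3 CPM in cerebellum. Of 10 astrocyte markers, 3 were higher and 2 lower. Gfap had 401, 377 and 341 CPM in hippocampus and 137 to 224 CPM in cerebellum and cortex, and 281 to 417 CPM in bulb, which overlapped. No erythrocyte gene of 5 and 1 endothelial gene of 8 passed on average. Dcn (decorin), a gene of meningeal fibroblasts, was defining in the full fit (1.23 ± 0.18) but lost the call without hippocampus 2 or 3, any 1 cerebellum library or bulb 1 or 2 (highest single-region edgeR adjusted p = 0.143).

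The choroid plexus, the tissue that secretes cerebrospinal fluid, was set aside. Its leading product transthyretin (Ttr) had 2283, 7.01 and 3002 CPM in hippocampus, against 1851, 2137 and 3.53 CPM in cerebellum, 353, 124 and 4.38 CPM in cortex and 1.02, 0.796 and 1.04 CPM in bulb. High libraries thus occurred in hippocampus, cerebellum and cortex, and each of these regions also had a library at no more than 7.01 CPM. Ttr passed on average (4.90 ± 1.52, edgeR adjusted p = 0.0329) but not against cerebellum (0.39, adjusted p = 0.886) or cortex (3.46, adjusted p = 0.359), and its average call was lost in runs that left out 1 library (adjusted p up to 0.101). Enpp2, autotaxin, had 1488, 145 and 1486 CPM in hippocampus and 1295, 1348 and 157 CPM in cerebellum, and did not pass. Kl, which encodes klotho, a co-receptor for FGF23, had 111, 30.1 and 133 CPM in hippocampus and 68.6, 76.2 and 1.69 CPM in cerebellum. In all, 38 genes were set aside: the 20 of the list and 18 whose within-region deviations followed the list mean with a correlation of at least 0.9 and a slope of at least 0.5. Of these, 11 were higher on average and 0 lower, and 9 of the 20 list genes passed, a count that ran from 0 without hippocampus 3 to 17 without hippocampus 2.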

How the data were processed

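Poly(A) RNA had been extracted with TRIzol and made into libraries with a TruSeq Stranded mRNA kit, per the labels' protocols. Per the submitters' processing notes, which name bcl2fastq 2.17.1.14, STAR 2.5.1b, HTSeq 0.6.1p1 and the mouse build mm9, the authors deposited whole-number counts per gene, 1 table per library. The strand setting of the counting is not given in the sources used here. Each table held 37621 features, of which 32897 were matched to a symbol, and 5 summary lines that were left out of library sizes. Reads in no feature were 8.217 to 16.79% of the lines' total, and reads not uniquely placed 11.57 to 13.53%. PCR duplicates were not marked by molecular identifiers.

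From these counts, edgeR 4.0.16 (R 4.3.3) was run on the 12 wild-type libraries in 1 fit with the default low-count filter, TMM factors, a mean per region and the robust quasi-likelihood test. Hippocampus was set against the mean of the other regions and against each alone, and p-values were adjusted by the Benjamini-Hochberg method over all 16729 genes, with a threshold of 0.05. Fold changes carry standard errors. The members and gene lists were chosen with earlier results of these data known. The text names the 15 defining genes per direction with the largest smallest single-region difference, at 1 CPM or more in hippocampus (higher) or in each other region (lower), and up to 8 passing members of each list. Outside that rule, Grin1, Grin2a, Grin2b, Tcf7l2, Drd1, Calb1, Zbtb20, Pdyn, Camk2d and Mef2c, and the genes given as examples of a list that did not pass, were chosen after their values were seen. Some genes that the rule names are not reported here. Genes were set aside as choroid plexus by a list of 20 and by following that list within regions.

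Alternatives were DESeq2 1.42.0, limma 3.58.1 (voom), other scalings and filters, a test against a log2 difference of 1, a choroid plexus covariate, the replicate number as a block, and runs without libraries. The run without the libraries numbered 2 was chosen after seeing the data. Replicates of a region differed by more than sampling noise (chi-square per degree of freedom 10.2 to 49.61 over 12 pairs), so all 12 were kept.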

Additional observations from a re-analysis of the deposited data

How the results depend on the processing

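Depth limits the genes at a few counts, where fold changes depend on the prior count, and 3 libraries per region limit small differences. Of the 30 top-ranked genes, all stayed defining under every alternative run except without the 6 choroid-plexus-rich libraries, where 25 did (not Spink8, Pla2g2f, Lhfpl1, Phex and Nxph4). Without those 6 libraries, a run that leaves hippocampus, cerebellum and cortex with 1 library each and assumes that the lone sample varies like the others, 1415 genes were higher and 748 lower on average, 83 and 62 were defining, 66 and 51 strongly so, and 4087, 358 and 3830 differed from cerebellum, cortex and bulb. The lone libraries were hippocampus 2, cerebellum 3 and cortex 3. Hippocampus 2 is the library given above as low in long transcripts, Grin2a and Grin2b. That run therefore changes more than choroid plexus content. In it Slc4a5 (-0.068), F5 (-0.42), Enpp2 (-0.33), Grin2a (-1.50) and Grin2b (-2.33) turned lower on the log2 scale. With the choroid score as a covariate F5 (-0.094) and Enpp2 (-0.074) did. The cause was not tested. A test against a log2 difference of 1, stricter by construction, gave 551 higher and 307 lower, 67 and 37 defining and as many strongly defining, and 2446, 341 and 1653 for the single regions. Leaving out 1 library gave 2406 to 3106 higher and 1678 to 2591 lower on average, 330 to 468 and 236 to 342 defining, 146 to 184 and 89 to 129 strongly defining, and 7007 to 8583, 1535 to 2845 and 5611 to 7229 against cerebellum, cortex and bulb. The other counts stayed within 1.5 times, except that against cortex with the replicate number as a block (3396, against 2257 in the main fit). Average calls ran to 3198 and 2701 with DESeq2, 2943 and 2647 with limma, and 2993 and 2157 with no filter.

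Libraries with the same number deviated together in most pairs of regions (correlation 0.0607 to 0.574 over 18 pairs, 1 under 0.1), and those with different numbers less (-0.427 to 0.144 over 36). A library correlated best with its own number in 35 of 36 cases, a hint from the data and not the design. Deviations from a region's mean cancel within that region, so higher same-number correlations force the others lower. These values are therefore not separate pieces of evidence. Pairing was taken as shown only where every same-number correlation was over 0.1, so the numbers were not treated as pairs. With the replicate number as a replicate block, 3598 genes were higher and 3402 lower on average, 566 and 373 were defining and 3396 differed from cortex.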

Other observations

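Desmosome and keratin genes were looked at after the values of Dsp were seen, so the values are a description. Of 9 tested desmosome genes (Dsp, Jup, plakophilins, desmogleins and desmocollins), 5 were higher and 2 lower on average, 2 were defining higher and 1, the plakoglobin gene Jup (-1.67), was defining lower. Of 16 tested keratin genes, 7 were higher and 2 lower on average, and 4 were defining higher. Both counts cover only genes that passed the low-count filter, which a gene can pass through high levels in hippocampus alone. They are therefore no result about the families. Over all genes tested, 17.7% were higher and 15.3% lower on average, and 2.78% were defining higher and 1.91% defining lower. Pkp2, the desmosomal plakophilin that binds desmoplakin, had 53.9, 53.5 and 41.1 CPM in hippocampus, against 2.21, 1.74 and 1.51 CPM in cerebellum, 6.48, 8.98 and 7.44 CPM in cortex and 1.86, 1.49 and 1.87 CPM in bulb. The keratin gene Krt73 had 6.91, 6.78 and 5.1 CPM in hippocampus and at most 1.76 CPM in every other library. The keratin gene Krt2 had 5.51, 6.82 and 7.85 CPM in hippocampus, 0.575 to 1.28 CPM in cortex and at most 0.0847 CPM in bulb. All 3 cerebellum libraries had 0 counts of Krt2, which puts hippocampus at least 208-fold higher at a floor of 3 counts over those libraries. For Pkp2, Krt73 and Krt2 the 3 hippocampus libraries did not overlap the other 9. Krt2 and Krt73 were no longer defining without the choroid-plexus-rich libraries. The same held for many genes described above as defining, among them Prox1, Rgs14, Cnih2, Gria4, Gad1, Npy2r and Hcn4. Others, such as Grik4, Nr3c2, Drd5 and Pkp2, stayed defining there.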
